A study of Bos taurus with 18 samples.

Results

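The genes described are the platelet-derived growth factor (PDGF) and KIT ligands and receptors of the cattle ovary: the ligands PDGFA, PDGFB, PDGFC and PDGFD, the receptors PDGFRA and PDGFRB, the receptor-like gene PDGFRL, the receptor KIT and its ligand KITLG. They were taken as a named list and read from the deposited array table, each through the brightest transcript cluster (the probes that summarise 1 transcript region) with a single gene symbol. All 9 were measured, of 18010 named genes in all, and each had only 1 cluster, so no choice between clusters was needed. Total RNA of 4 ovarian compartments was hybridised to 18 single-colour arrays. The theca group (6 arrays) held the steroid-producing layer dissected from healthy antral follicles under 5 mm, 1 follicle and 1 animal per array. Interstitial stroma, stroma close to follicles (which the protocol also calls pre-theca) and tunica albuginea (the dense fibrous coat beneath the surface epithelium) had 4 arrays each, cut by laser from stained sections of cortex, with RNA pooled from different animals. All ovaries came from non-pregnant Bos taurus cows at an abattoir, 1 ovary per animal, and no group was treated. The labels give neither breed nor age. Theca RNA was extracted with another kit than laser-captured RNA and was not pooled, so wherever theca is compared, compartment, collection, pooling and kit cannot be told apart. One label names thecal tissue for all 18 samples and was left aside. In the theca arrays the 5 measured markers of steroid-producing theca cells averaged 8.9 to 10.06 on the log2 scale, against 2.88 to 3.4 on the laser-captured arrays. This set theca apart from the other arrays as labelled. These markers cannot tell the 3 laser-captured compartments from each other. The 10 fibroblast markers averaged 7.53 or more on every array.

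PDGFs are secreted dimers that act on mesenchymal cells through 2 receptor tyrosine kinases, PDGFRA and PDGFRB. PDGFA binds PDGFRA and PDGFB binds both receptors. PDGFC and PDGFD leave the cell in a latent form and become active once a protease removes their outer domain, after which PDGFC acts mainly through PDGFRA and PDGFD through PDGFRB. KIT belongs to the same receptor class, and its ligand KITLG exists as a membrane-bound and a released form. In the ovary KITLG is known as a product of granulosa cells that acts on KIT of oocytes and theca cells.

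The values are log2 signals made by the submitters with RMA and rounded to 1 decimal, so a difference of 1 is 2-fold. Every array had a median of 4.1, and 4.1 was used as a level that background alone can give, since the table has no detection calls. All 18 values of PDGFC, PDGFD, PDGFRA, PDGFRB, KIT and KITLG lay above it. PDGFA was at or below it on 12 arrays, PDGFB on 11 and PDGFRL on 6. Differences were tested with limma over all 18 arrays and called at an adjusted p below 0.05 (Benjamini-Hochberg over all 26773 clusters). Errors are the SD over the arrays of 1 compartment for a level and the moderated SE for a difference, and the p-values measure only the spread between these arrays or pools. In such bulk samples, fewer cells of a type and less RNA per cell cannot be told apart.

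**Figure D1:**
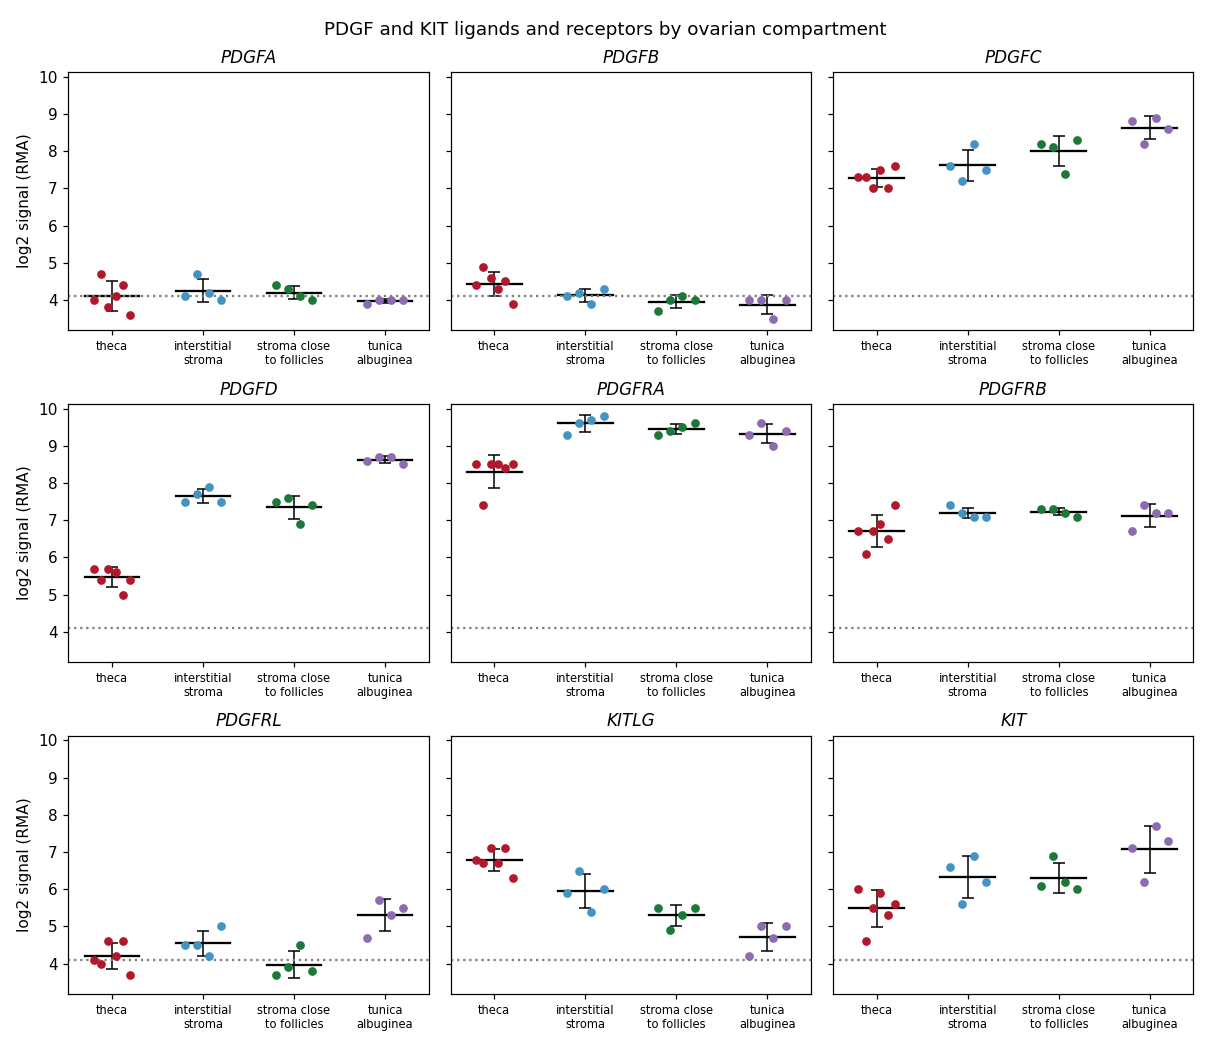
Log2 signal (RMA) of the 9 genes on every array, by compartment (6 theca arrays, 4 of each other compartment). Points are arrays, the horizontal bar is the mean and the whisker 1 SD, and the dotted line marks the array median of 4.1. PDGFD and PDGFRA sit lower on every theca array than on any laser-captured array, KITLG steps down from theca to tunica albuginea, and PDGFA stays near the dotted line in all 4 compartments.

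Of the 9 genes, 7 were called when theca was set against the laser-captured mean (the average of the 3 compartment means): PDGFC, PDGFD, PDGFRA, PDGFRB and KIT were lower in theca, and KITLG and PDGFB were higher. Over all clusters 41.9% were called in that comparison, 19.6% higher and 22.2% lower, so the count is read against a large background. The median difference of the 9 genes was -0.47, beside -0.04 over all clusters. When arrays were scaled on their 75th percentile, the calls over all clusters split into 4230 higher and 8337 lower in place of 5256 and 5950, and the number of genes called here was 8, with PDGFRL (-0.51, limma adjusted p = 0.022) as the added one.

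Over all 4 compartments the F test called 7 of the 9 genes, beside 36.4% of all clusters, and left out PDGFA (adjusted p = 0.646) and PDGFRB (adjusted p = 0.0864). The F call of PDGFB (adjusted p = 0.0359) was lost in 8 of 24 alternatives, both scalings (adjusted p = 0.122 and 0.135) and leaving out theca replicate 1, 2, 3 or 5, stroma close to follicles replicate 1 or tunica albuginea replicate 3 (0.0536 to 0.0838). PDGFRB passed in 5 of 24, both scalings, array weights and leaving out theca replicate 6 or tunica albuginea replicate 1 (0.0085 to 0.0481). Against interstitial stroma 3 of the 9 were called (background 28.9%), KITLG higher (14.4% of clusters) and PDGFD and PDGFRA lower (14.6%). Against stroma close to follicles 6 were called (31.1%), 2 higher (15.4%) and 4 lower (15.6%), and against tunica albuginea 7 (34.4%), 2 higher (16.3%) and 5 lower (18.1%). These comparisons share the theca arrays. Arrays of theca and of the other side did not overlap for 2 of the 9 genes against interstitial stroma (19.3% of clusters), 6 when tunica albuginea was the other side (21.2%), 3 for stroma close to follicles (18.7%) and 2 for all laser-captured arrays together (10%). The scaling on the 75th percentile changed their splits over all clusters from 3850 higher and 3897 lower to 3163 and 5142, from 4131 and 4183 to 3278 and 5981, and from 4372 and 4835 to 3524 and 6766. It moved the median difference of all clusters by -0.11 against stroma close to follicles and tunica albuginea.

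Of the PDGF ligands, PDGFD had the widest span of compartment means. It is a mitogen for cells that carry PDGFRB. Theca arrays ranged from 5.0 to 5.7 with a median of 5.5. The interstitial stroma arrays read 7.5, 7.7, 7.9 and 7.5, those of stroma close to follicles 7.5, 7.6, 6.9 and 7.4, and those of tunica albuginea 8.6, 8.7, 8.7 and 8.5. Theca lay below every other array without overlap, and tunica albuginea lay above every other array. PDGFD in theca was 5.31-fold lower than the laser-captured mean, a log2 difference of -2.41 ± 0.12 (SE, limma adjusted p = 5e-11).

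Tunica albuginea exceeded interstitial stroma in PDGFD by 0.97 ± 0.17 (limma adjusted p = 0.00466) and stroma close to follicles by 1.27 ± 0.17 (limma adjusted p = 0.000198). The 2 stromal compartments were neighbours in the order and were not called apart (-0.30 for stroma close to follicles minus interstitial stroma, 95% interval -0.65 to 0.05). Against the single compartments, the differences of theca were -2.18 ± 0.15 from interstitial stroma, -1.88 ± 0.15 from stroma close to follicles and -3.16 ± 0.15 from tunica albuginea, the last an 8.93-fold difference. PDGFD also had the smallest spread among the genes above background in tunica albuginea, with an SD of 0.10 (n = 4).

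PDGFC, the other latent ligand and one that signals mainly through PDGFRA, was highest in tunica albuginea as well, over a narrower span. Its tunica albuginea arrays read 8.8, 8.2, 8.9 and 8.6, and its theca arrays ranged from 7.0 to 7.6 (median 7.3). Interstitial stroma read 7.6, 7.2, 8.2 and 7.5 and stroma close to follicles 8.2, 8.1, 7.4 and 8.3. Theca did not overlap with tunica albuginea, but it overlapped with both stromal compartments. PDGFC in theca was lower than in tunica albuginea by a log2 difference of -1.34 ± 0.21 (limma adjusted p = 7.7e-05) and than in stroma close to follicles by -0.72 ± 0.21 (limma adjusted p = 0.0135).

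The PDGFC call against stroma close to follicles was lost without replicate 4 of that stroma (adjusted p = 0.0533). Against interstitial stroma the difference of theca was -0.34 (95% interval -0.78 to 0.10), which did not pass. Tunica albuginea was higher in PDGFC than interstitial stroma by 1.0 ± 0.23 (limma adjusted p = 0.0313), a 2-fold difference that was lost in 9 of 26 alternatives, among them the exact permutation test over arrays (two-sided p = 0.0571) and leaving out any of 6 of the 8 arrays compared (adjusted p 0.0603 to 0.115). No neighbouring pair in the order of PDGFC (tunica albuginea, stroma close to follicles, interstitial stroma, theca) was called apart.

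The classical ligands PDGFA and PDGFB stayed near the array median. PDGFB, which endothelial cells use to recruit pericytes, ranged from 3.9 to 4.9 in theca (median 4.45), and read 4.1, 4.2, 3.9 and 4.3 in interstitial stroma, 3.7, 4.0, 4.1 and 4.0 in stroma close to follicles and 4.0, 4.0, 3.5 and 4.0 in tunica albuginea. The lowest theca array, replicate 6 at 3.9, lay inside the range of each other compartment, and replicate 4 at 4.3 reached that of interstitial stroma too. PDGFB in theca was higher than the laser-captured mean by 0.45 ± 0.13 (limma adjusted p = 0.00817), a 1.37-fold difference. In theca 1 of 6 arrays lay at or below 4.1, the level that background can give. In interstitial stroma 2 of 4 did, and in stroma close to follicles and tunica albuginea all 4. The call against stroma close to follicles (0.48 ± 0.16, adjusted p = 0.0317) was lost in 9 of 26 alternatives, among them both array scalings and leaving out theca replicate 2, 3 or 5 or replicate 1, 2 or 4 of that stroma (adjusted p 0.0521 to 0.11), and the call against tunica albuginea (0.56 ± 0.16, adjusted p = 0.0132) was lost without its replicate 3 (adjusted p = 0.0619).

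PDGFA differed in no comparison, with compartment means of 3.98 to 4.25. The 95% interval for theca minus the laser-captured mean ran from -0.34 to 0.26, and all 4 tunica albuginea arrays read 3.9 or 4.0. At these levels a low signal and no signal cannot be separated.

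**Figure D2:**
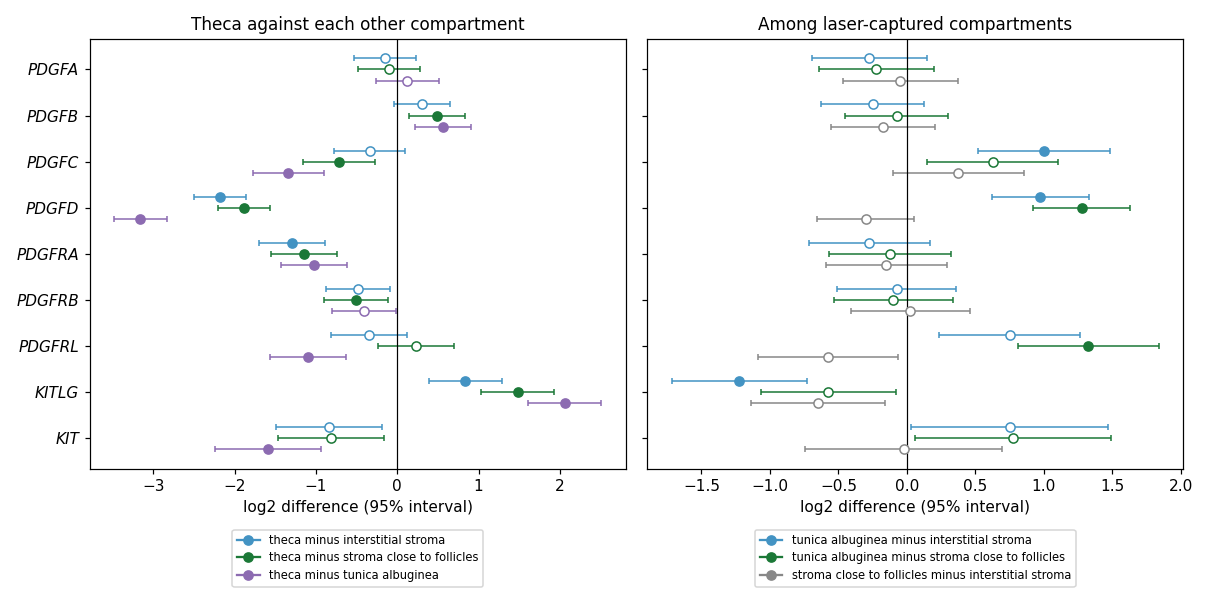
Log2 differences of the 9 genes with 95% intervals, theca against each other compartment on the left and the laser-captured compartments among themselves on the right. Filled points passed an adjusted p of 0.05 and open points did not. PDGFD reaches -3.16 and KITLG 2.06 against tunica albuginea, and on the right no grey point (stroma close to follicles minus interstitial stroma) is filled.

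Among the receptors, PDGFRA, a marker of mesenchymal and fibroblast-like cells, was lower in theca. Its 6 theca arrays ranged from 7.4 to 8.5 with a median of 8.5. Interstitial stroma read 9.3, 9.6, 9.7 and 9.8, stroma close to follicles 9.3, 9.4, 9.5 and 9.6, and tunica albuginea 9.3, 9.6, 9.0 and 9.4. No theca array reached the lowest laser-captured array. PDGFRA in theca was 2.23-fold lower, with a log2 difference of -1.16 ± 0.15 from the laser-captured mean (limma adjusted p = 6.59e-06).

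Against single compartments the differences of PDGFRA in theca were -1.30 ± 0.19, -1.15 ± 0.19 and -1.02 ± 0.19 (interstitial stroma, stroma close to follicles, tunica albuginea). The 3 laser-captured compartments followed each other within 0.28 log2 units and no pair of them was called apart, with a 95% interval of -0.72 to 0.17 for tunica albuginea minus interstitial stroma. Without theca replicate 2, the array at 7.4, the difference from the laser-captured mean was -0.98 (adjusted p = 1.07e-06).

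PDGFRB, the receptor of pericytes and vascular smooth muscle cells, varied less. Theca arrays ranged from 6.1 to 7.4 (median 6.7). Interstitial stroma read 7.4, 7.2, 7.1 and 7.1, stroma close to follicles 7.3, 7.3, 7.2 and 7.1, and tunica albuginea 6.7, 7.4, 7.2 and 7.2. Theca overlapped with every compartment, since replicate 6 read as high as any laser-captured array. PDGFRB in theca was lower than the laser-captured mean by a log2 difference of -0.47 ± 0.15 (limma adjusted p = 0.0152), and without theca replicate 2 by -0.34 (adjusted p = 0.0505).

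The PDGFRB call against stroma close to follicles (-0.51 ± 0.19, adjusted p = 0.0476) was lost in 16 of 26 alternatives, 14 of which left out 1 array of any compartment (adjusted p 0.0519 to 0.104), and the differences from interstitial stroma (-0.48, adjusted p = 0.0622) and tunica albuginea (-0.41, adjusted p = 0.103) did not pass. They passed in 6 and 5 of 26 alternatives, both scalings, array weights and leaving out theca replicate 6 or tunica albuginea replicate 1 among them in each case (adjusted p 0.0072 to 0.0487). Among the laser-captured compartments the means of PDGFRB were 7.20, 7.22 and 7.12, and each 95% interval of their differences lay within -0.53 and 0.46. Pericyte and smooth muscle markers moved in both directions in theca, 5 of 11 higher and 5 lower (beside 19.6% and 22.2% of all clusters): the pericyte gene RGS5 was higher by 3.15 ± 0.37 (adjusted p = 1.99e-06) and the contractile gene MYH11 lower, at -2.30 ± 0.16 (adjusted p = 3.38e-09). The mean of that list was 5.15 to 5.55 on theca arrays, 5.31 to 6.13 in interstitial stroma, 5.44 to 5.75 in stroma close to follicles and 5.12 to 5.5 in tunica albuginea. Its part in the PDGFRB values was not tested.

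PDGFRL encodes a protein that resembles the ligand-binding part of a PDGF receptor and has no kinase. It was highest in tunica albuginea, where its arrays read 4.7, 5.7, 5.3 and 5.5. Stroma close to follicles read 3.7, 3.9, 4.5 and 3.8, interstitial stroma 4.5, 4.5, 4.2 and 5.0, and theca ranged from 3.7 to 4.6 (median 4.15). Tunica albuginea lay above stroma close to follicles and theca without overlap, and overlapped with interstitial stroma. PDGFRL in tunica albuginea exceeded stroma close to follicles by 1.32 ± 0.24 (limma adjusted p = 0.00403).

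Theca was lower than tunica albuginea in PDGFRL by a log2 difference of -1.10 ± 0.22 (limma adjusted p = 0.000905). Since 3 of 6 theca arrays and 3 of 4 arrays of stroma close to follicles lay at or below 4.1, both differences are lower limits where that signal is background. The difference between tunica albuginea and interstitial stroma (0.75, 95% interval 0.24 to 1.26, adjusted p = 0.159) did not pass after adjustment over all clusters.

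KITLG ran from theca down to tunica albuginea. Theca arrays ranged from 6.3 to 7.1 (median 6.75). Interstitial stroma read 5.9, 6.5, 5.4 and 6.0, stroma close to follicles 5.5, 4.9, 5.3 and 5.5, and tunica albuginea 4.2, 5.0, 4.7 and 5.0. Theca lay above stroma close to follicles and tunica albuginea without overlap, and overlapped with interstitial stroma between 6.3 and 6.5. KITLG in theca was 2.75-fold higher than the laser-captured mean, at 1.46 ± 0.17 log2 units (limma adjusted p = 1.56e-06).

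Theca exceeded interstitial stroma in KITLG by 0.83 ± 0.21 (limma adjusted p = 0.00657), stroma close to follicles by 1.48 ± 0.21 (limma adjusted p = 4.07e-05) and tunica albuginea by 2.06 ± 0.21 (limma adjusted p = 1e-06), the last a 4.17-fold difference. Tunica albuginea was lower than interstitial stroma by a log2 difference of -1.23 ± 0.23 (limma adjusted p = 0.0101), a call lost when only these 8 arrays were fitted (adjusted p = 0.0697). Stroma close to follicles did not pass against either of its neighbours in the order (-0.65 from interstitial stroma, adjusted p = 0.429, and 0.58 above tunica albuginea, adjusted p = 0.226).

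KIT ran the other way. Tunica albuginea read 7.1, 6.2, 7.7 and 7.3, interstitial stroma 6.6, 5.6, 6.9 and 6.2, stroma close to follicles 6.1, 6.9, 6.2 and 6.0, and theca ranged from 4.6 to 6.0 (median 5.55). Theca and tunica albuginea did not overlap, while theca met stroma close to follicles at 6.0 and interstitial stroma from 5.6. KIT in theca was lower than in tunica albuginea by a log2 difference of -1.59 ± 0.31 (limma adjusted p = 0.000675), a 3.01-fold difference, and lower than the laser-captured mean at -1.08 ± 0.24 (limma adjusted p = 0.00147).

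The KIT differences of theca from interstitial stroma (-0.84, 95% interval -1.50 to -0.19, adjusted p = 0.0504) and from stroma close to follicles (-0.82, 95% interval -1.47 to -0.16, adjusted p = 0.0543) just missed the threshold. They passed in 11 and 10 of 26 alternatives, among them the exact permutation test over arrays, which was read without adjustment (p = 0.0381 and 0.0143). Tunica albuginea stood above both stromal compartments by 0.75 and 0.77 without passing (adjusted p = 0.358 and 0.271). KIT had wide spreads, with SDs of 0.41 to 0.63 within compartments, against 0.10 to 0.31 for PDGFD, and its SE was the widest of the 9 genes in each comparison.

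Some fibroblast markers stood higher in tunica albuginea than in the stromal compartments too, beside PDGFC, PDGFD and PDGFRL. Of 10, 4 were higher there than in interstitial stroma (beside 0.945% of clusters) and 5 higher than in stroma close to follicles (beside 1.85%), with none lower, among them COL1A1 (1.48 ± 0.26, adjusted p = 0.0049) and THY1 (1.0 ± 0.14, adjusted p = 0.000987) against interstitial stroma. Against theca, tunica albuginea was higher in 6 of the 10 and lower in 3, beside 18.1% and 16.3% of clusters. The 3 were DPT, COL1A2 and COL3A1. Theca against the laser-captured mean had 4 of the 10 higher and 4 lower, beside 19.6% and 22.2%. The list averaged 8.19 to 8.99 in tunica albuginea, 7.77 to 8.57 in interstitial stroma, 7.53 to 7.77 in stroma close to follicles and 7.88 to 8.72 in theca, and its part in the ligand values was not tested.

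Comparisons among laser-captured compartments called few clusters. Between tunica albuginea and interstitial stroma, PDGFC, PDGFD and KITLG were called, 3 of 9 beside 1.52% of all clusters (0.945% higher and 0.575% lower in tunica albuginea), and the arrays did not overlap for PDGFD and KITLG, beside 5.85% of clusters. Between tunica albuginea and stroma close to follicles, PDGFD and PDGFRL were called, 2 of 9 beside 3.8% (1.85% higher and 1.95% lower), and both did not overlap, beside 6.6% of clusters. Between stroma close to follicles and interstitial stroma none of the 9 was called by limma, beside 9 clusters in all (0.0336%). At an unadjusted limma p below 0.05 there were 2, PDGFRL and KITLG. All clusters were not counted at that threshold, so these 2 cannot be set against the 0.0336%. The exact permutation test over arrays gave 0. No gene of the 9 had arrays without overlap there, beside 2.59% of clusters. The 9 genes were listed with earlier results of these data known, so these shares are descriptions.

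Markers of other cells moved along with KITLG. Besides granulosa cells, endothelial cells are known to make KITLG. Of 12 endothelial markers, 11 were higher in theca than in the laser-captured mean and none lower, beside 19.6% of all clusters higher, and 4 were lower in tunica albuginea than in interstitial stroma, beside 0.575% of clusters. Their mean log2 level per array was 5.98 to 6.28 in theca, 4.26 to 5.34 in interstitial stroma, 4.18 to 4.65 in stroma close to follicles and 3.98 to 4.12 in tunica albuginea, the same order of compartments as for KITLG. Within interstitial stroma, replicate 3 was lowest in both (4.26 for the list, 5.4 for KITLG) and replicate 2 highest in both (5.34 and 6.5), whereas in stroma close to follicles the array highest for the list (replicate 3, 4.65) read 5.3 for KITLG, below replicates 1 and 4 at 5.5. In tunica albuginea, where KITLG was lowest, 8 of the 12 markers lay at or below 4.1 on every array.

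Granulosa cell markers were also higher in theca, 7 of 10 (beside 19.6% of all clusters higher), with FOXL2 lower (-0.51 ± 0.14, adjusted p = 0.00652), and led by FST (3.47 ± 0.14, adjusted p = 2.33e-12) and INHA (3.11 ± 0.17, adjusted p = 1.9e-10). CYP19A1, the granulosa enzyme that makes oestrogen, was among the 7 (0.49 ± 0.17, adjusted p = 0.0252), with means below the array median in every compartment (2.98 in theca). The granulosa list averaged 4.91 to 5.43 on theca arrays, 3.87 to 3.96 in interstitial stroma, 3.90 to 4.15 in stroma close to follicles and 3.82 to 3.91 in tunica albuginea. The part of either cell type in the KITLG values was not tested.

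For KIT, marker lists were read for 2 of the cell types known to carry it besides theca, oocytes and mast cells. Oocyte markers averaged 3.92 to 5.30 in stroma close to follicles, 3.55 to 4.15 in interstitial stroma, 3.07 to 3.34 in tunica albuginea and 3.07 to 3.26 in theca. In tunica albuginea 8 of the 10 measured oocyte markers lay at or below 4.1 on every array, and DDX4 and GDF9 averaged 2.70 and 2.68. Mast cell markers averaged 2.90 to 3.10 in theca, 3.04 to 4.09 in interstitial stroma, 2.77 to 4.04 in stroma close to follicles and 3.24 to 3.80 in tunica albuginea. Of the 7 measured, CPA3 (-1.19 ± 0.39, adjusted p = 0.0208) and HPGDS (-1.45 ± 0.33, adjusted p = 0.00172) were lower in theca than in the laser-captured mean (28.6%, beside 22.2% of all clusters lower). The other 5 were not called and ran from -0.37 (MS4A2) to 0.25 (HDC). All 7 mast cell markers lay at or below 4.1 on every theca array, and KIT lay above it on all 18 arrays. The part of oocytes or mast cells in the KIT values was not tested.

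**Figure D3:**
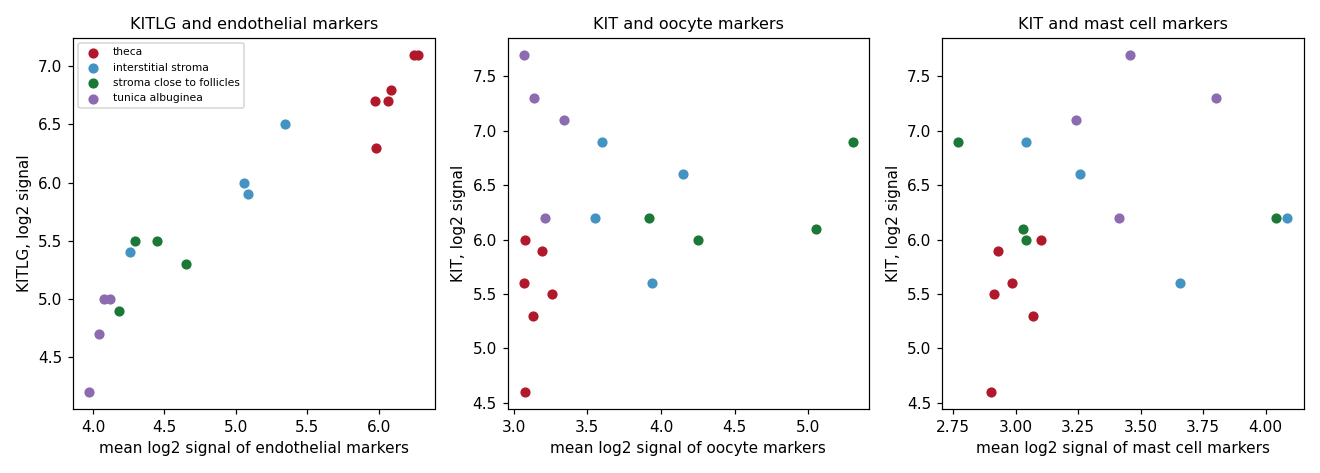
Log2 signal of KITLG or KIT on each of 18 arrays (vertical axes) against the mean log2 signal of a marker list on the same array (horizontal axes), coloured by compartment. KITLG and the endothelial list run from tunica albuginea at the lower left (4.2 to 5.0 for KITLG) to theca at the upper right (6.3 to 7.1). KIT runs from 4.6 in theca to 7.7 in tunica albuginea, and the oocyte list is highest in stroma close to follicles (up to 5.3).

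Theca replicate 2 was the lowest theca array for PDGFRA (7.4), PDGFRB (6.1) and KIT (4.6), and the highest for PDGFA (4.7) and PDGFB (4.9). Among theca arrays, that array had the lowest means of the steroidogenic list (8.9 against 9.18 to 10.06) and the fibroblast list (7.88 against 8.11 to 8.72). Its mean of the mast cell list was lowest by a small gap (2.90 against 2.91 to 3.10), from markers at or below 4.1. The granulosa list was likewise lowest there by a small gap (4.91 against 4.92 to 5.43). The mean of the macrophage and platelet list was highest there, at 4.7 against 4.23 to 4.55. Their part in its values was not tested. Without this array KIT in theca differed from the laser-captured mean by -0.91 (adjusted p = 0.00516) and PDGFB by 0.36 (adjusted p = 0.0282). KITLG (6.7) and PDGFC (7.3) on that array lay inside the range of the other theca arrays, and PDGFD (5.4) did too.

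In the RefSeq gene table of the ARS-UCD2.0 assembly, which held all 9 genes under the same symbols, KIT lies between PDGFRA and KDR, a VEGF receptor of endothelial cells. The neighbours did not share 1 pattern: PDGFRA and KIT were lower in theca, and KDR was higher by 2.16 ± 0.22 (limma adjusted p = 3.35e-07). PDGFRB lies beside CSF1R, the receptor of macrophage colony-stimulating factor, whose difference in theca was -0.03 (adjusted p = 0.865). KITLG lies beside DUSP6, a phosphatase that ends MAP kinase signalling, and DUSP6 was higher in theca by 0.88 ± 0.18 (adjusted p = 0.000651).

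Genes with the most similar pattern were ranked among all named genes by the root mean square difference between profiles over the 18 arrays, each gene centred on its own mean, for genes whose compartment means spanned at least 1 log2 unit. For PDGFD these were the receptor phosphatase gene PTPRU (0.31), FAM163A (0.34) and LTBP3 (0.36), which encodes a binding protein of latent TGF-beta. For PDGFC they were TSPAN4 (0.26), FBXL7 (0.27) and ENC1 (0.28), and for PDGFRA PLSCR4 (0.18), RNPC3 (0.19) and SESN1 (0.20). PLPP3 (0.28), CAST (0.31) and the fibroblast list's THY1 (0.33) came nearest to PDGFRL.

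For KIT the nearest were FRRS1 (0.34), PLCB4 (0.37) and OTUD1 (0.38), of which FRRS1 had compartment means of 2.78 to 3.98, all below the 4.1 that background can give. For KITLG they were PODXL (0.34), LOC782486 (0.34) and TEK (0.35). PODXL and TEK, the angiopoietin receptor, are known in endothelium, and TEK was in the endothelial list. TEK averaged 5.87 in theca, 4.80 in interstitial stroma, 4.28 in stroma close to follicles and 3.40 in tunica albuginea. PDGFA, PDGFB and PDGFRB did not meet the span and were not ranked.

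**Figure D4:**
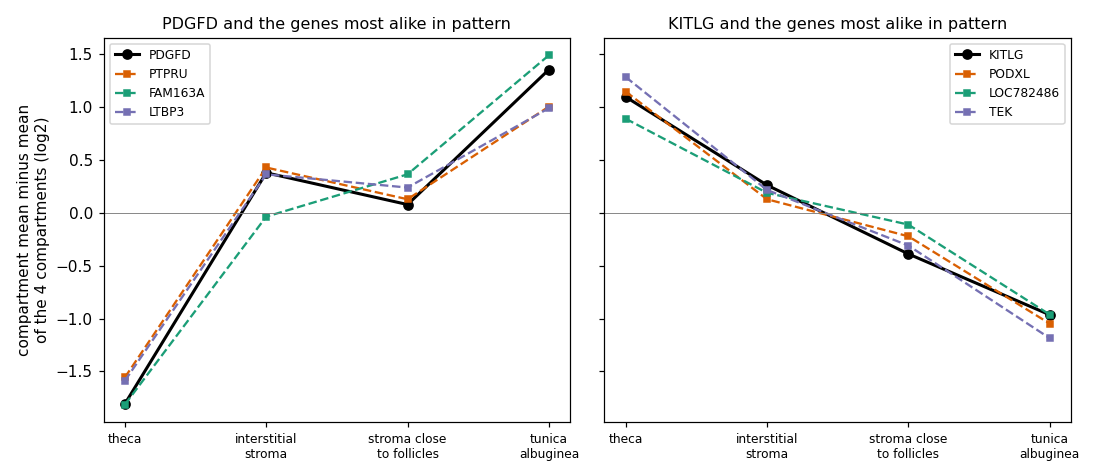
Compartment means of PDGFD (left) and KITLG (right) and of the 3 genes most alike in pattern, each gene centred on the mean of its 4 compartment means (log2 units). PDGFD and its neighbours are lowest in theca and highest in tunica albuginea, and KITLG and its neighbours are highest in theca and lowest in tunica albuginea.

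Around the ligands, 10 genes that process or bind them were listed, and 3 were higher and 2 lower in theca than in the laser-captured mean (median 0.17), near the 41.9% called over all clusters. PLAU, the urokinase that can release active PDGFD, was higher by 0.79 ± 0.16 (adjusted p = 0.000528). Its mean was 4.47 in theca, where 1 of 6 arrays lay at or below 4.1. Elsewhere its means were 3.35 to 3.85, levels that background can give. PLAT, the tissue plasminogen activator that can release active PDGFC, was higher by 0.47 ± 0.16 (adjusted p = 0.0281). SPARC, a matrix protein that binds PDGFB, was higher by 0.68 ± 0.08 (adjusted p = 2.46e-06), and the metalloproteinase gene ADAM33 lower, at -1.42 ± 0.14 (adjusted p = 2.62e-07).

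In tunica albuginea ADAM33 and SPARC were higher than in interstitial stroma, 2 of 10 (beside 0.945% of clusters), and with PLAT they were higher than in stroma close to follicles, 3 of 10 (beside 1.85%), with none lower. ADAM33 averaged 6.5 in tunica albuginea, 5.32 in interstitial stroma, 5.35 in stroma close to follicles and 4.3 in theca. It was highest and lowest in the same compartments as PDGFD, and the other way round from KITLG. An action of ADAM33 on either ligand was not tested. FURIN, which cuts the PDGFA and PDGFB precursors, was lower in theca than in the laser-captured mean, at -0.45 ± 0.10 (adjusted p = 0.00128).

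Below the receptors, 17 of 35 measured adaptors and direct effectors were called in theca against the laser-captured mean, 7 higher and 10 lower (median -0.06). That share, 48.6%, and the median lay near those of all clusters (41.9% called, median -0.04). The docking protein GAB2 had the largest difference, at -1.85 ± 0.18 (adjusted p = 1.88e-07), followed by the transcription factor STAT5B (-1.33 ± 0.13, adjusted p = 2.32e-07). The SRC family kinase LYN was higher by 1.33 ± 0.18 (adjusted p = 1.03e-05), from a laser-captured level of 2.72 to 2.88, and PLCG2 by 1.14 ± 0.17 (adjusted p = 2.46e-05). LYN lay at or below 4.1 on all 12 laser-captured arrays and PLCG2 on 11 of them. By its difference LYN averaged near 4.1 in theca as well, a level that background can also give. The PLCG2 difference is a lower limit where its laser-captured signal is background. Both genes are known in leukocytes, and 4 of the 11 macrophage and platelet markers were higher in theca (36.4%, beside 19.6% of all clusters higher), led by C1QA (1.5 ± 0.27, adjusted p = 0.000205). The part of leukocytes in these values was not tested. The phospholipase PLCG1, which binds both PDGF receptors, was lower, at -0.88 ± 0.10 (adjusted p = 8.95e-07).

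The MAP kinase and AKT cascade had 13 measured genes, of which theca was higher in 2 and lower in 5 (median -0.27), beside 19.6% higher and 22.2% lower over all clusters. NRAS was higher by 1.62 ± 0.15 (adjusted p = 1.87e-07). FOXO3 (-1.22 ± 0.14, adjusted p = 1.29e-06), FOXO1 (-0.88 ± 0.10, adjusted p = 1.09e-06), both transcription factors that AKT keeps out of the nucleus, and MAPK3 (-0.98 ± 0.16, adjusted p = 8.15e-05) were lower.

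Of 12 feedback inhibitors of receptor tyrosine kinases, 5 were lower in theca and 2 higher (median -0.33), beside 22.2% lower and 19.6% higher over all clusters. ERRFI1 (-1.07 ± 0.16, adjusted p = 3.22e-05), SPRY1 (-1.02 ± 0.16, adjusted p = 4.75e-05) and LRIG1 (-0.93 ± 0.14, adjusted p = 4.51e-05) were lower, while DUSP6 was higher, as given above. Of 5 other genes of the same receptor class and their ligands, FLT3LG alone was called, lower at -0.57 ± 0.15 (adjusted p = 0.00504). That is 20%, beside 41.9% called over all clusters. None of the adaptor, cascade, feedback or related receptor genes was called by limma between any pair of laser-captured compartments. Over all clusters few were called there too: 1.52% between tunica albuginea and interstitial stroma, 3.8% between tunica albuginea and stroma close to follicles and 0.0336% between the stromal compartments.

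**Figure D5:**
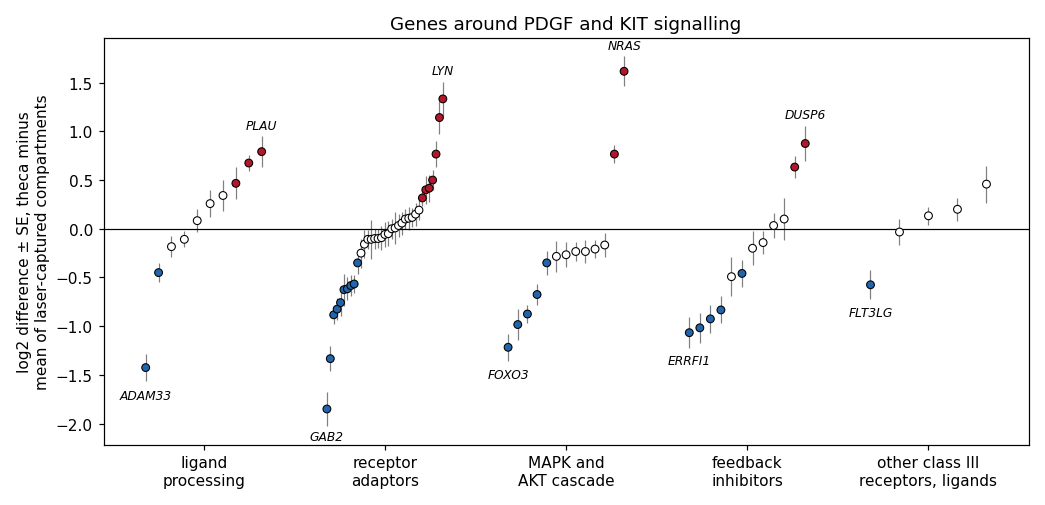
Log2 difference (theca minus the laser-captured mean) with 1 SE for every measured gene of 5 lists around PDGF and KIT signalling. Red points were called higher and blue points lower at an adjusted p below 0.05, open points were not called, and the named genes are the outermost called ones. GAB2 reaches -1.85 and NRAS 1.62.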

How the data were processed

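Ovarian RNA from theca (6 arrays) and 3 laser-captured compartments (4 arrays each) was amplified and hybridised, per the labels' protocols. The deposited values are log2 signals made with RMA and Partek 6.5, per the submitters' processing notes; quantile normalization hides a change common to most genes. The array's annotation table listed 19145 of 26773 clusters, 18457 with 1 symbol, 688 with several and 7628 not listed; only single symbols were named. Differences were fitted with limma 3.58.1 in R 4.3.3, 1 mean per compartment over 18 arrays, moderated two-sided p-values, adjusted over all clusters. The script was tested on simulated data. Same-numbered arrays were not treated as pairs. Their deviations correlated at 0.095 to 0.145 between interstitial stroma and tunica albuginea, and at -0.048 to 0.076 in the other pairs of compartments. Arrays of different number were not compared in this way, so pairing of those 2 compartments cannot be denied. Replicates held identical values at 9.12% to 14% of clusters, and mean within-compartment correlations were 0.956 to 0.974; no array was treated as a repeat. All 9 genes were described. Of each list, up to 4 called genes with the largest difference per comparison were named, plus genes a result turned on. Members and lists were chosen with earlier results of these data known. Alternatives were 2 array scalings, a filter on the 40% dimmest clusters, trended robust moderation, array weights, a replicate block, fits of only the arrays compared, an exact permutation test, a 2-fold threshold and leaving out each array. Permutation p-values were not adjusted. The number of arrays limits the precision.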

Additional observations from a re-analysis of the deposited data

Results flagged for a closer look

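In the 36 sets formed by the 9 genes and 4 compartments, 3 held 1 array far from the others by Dixon's criterion. For unrounded normal values chance alone meets it in about 1 set in 20. That rate need not hold for values rounded to 1 decimal, where equal values make any gap pass. PDGFRA on theca replicate 2 read 7.4, with the other 5 theca arrays at 8.4 to 8.5. PDGFB on tunica albuginea replicate 3 read 3.5 and PDGFA on tunica albuginea replicate 1 read 3.9, with the other 3 arrays at 4.0 in both cases; the second gap is 1 step of the rounding.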

How the results depend on the processing

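Each of 63 differences (9 genes in 7 comparisons) was recomputed under 26 alternatives. A pass was an adjusted p below 0.05, except in the exact permutation test, where it was an unadjusted p below 0.05. Of 28 called, 21 stayed called in all 26 and 7 were lost in 1 or more, while 6 others passed in 1 or more. The 7 that changed sign in an alternative were not called. A mean over several clusters of a gene could not be run, since each of the 9 had 1.

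With a 2-fold minimum, clusters called were 2598 (theca against the laser-captured mean), 2557 (interstitial stroma), 2725 (stroma close to follicles), 2914 (tunica albuginea), 233 (tunica albuginea against interstitial stroma) and 497 (the same against stroma near follicles), and genes of the 9 called were 4 for the first and 3 for the third. Both scalings called 5 of the 9 for theca against interstitial stroma, adding KIT and PDGFRB. Clusters called in that comparison were 8305 (75th percentile) and 7918 (bright clusters), in place of 7747. Fitting only the arrays compared gave 204 clusters and 1 gene, PDGFD, for tunica albuginea against interstitial stroma, 434 clusters against stroma close to follicles and 0 between the stromal compartments. Between these the scaling by bright clusters gave 15, the filter on dim clusters 3 and trended robust moderation 14; the cause was not tested.

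With the replicate number as a block, 7 of the 9 genes were called as before for theca against the laser-captured mean, and 5 clusters between the stromal compartments. The number of all clusters called for theca under the block is not given here. The block lost PDGFC for tunica albuginea against interstitial stroma (adjusted p = 0.0694) and added PDGFRB for theca against interstitial stroma (adjusted p = 0.0357). PDGFA for theca was 0.0083 under the block, and KIT between the stromal compartments 0.025 under the scaling by bright clusters, both of opposite sign to the reported value and not called.

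Leaving out 1 array at a time called 3 to 5 of the 9 genes for theca against interstitial stroma, beside 6508 to 7930 clusters. The 5 came without theca replicate 6. With stroma close to follicles as the other side, the genes called were 3 to 7, beside 7060 to 8455 clusters. The 3 came without replicate 4 of that stroma. Clusters ran from 219 to 477 for tunica albuginea against interstitial stroma, from 627 to 1022 against stroma close to follicles and from 0 to 152 between the stromal compartments, the 152 without stroma close to follicles replicate 3. The first count dropped by over 1.5 times without interstitial stroma replicate 1, 2 or 4 or tunica albuginea replicate 3, and the second without stroma close to follicles replicate 1 or 2 or tunica albuginea replicate 3. The third moved as far without any array of either stroma, any theca array or tunica albuginea replicate 4. Uncalled differences crossed 0: PDGFA for theca from -0.16 to 0.058, PDGFRB for tunica albuginea from -0.17 to 0.067 (interstitial stroma) and from -0.19 to 0.042 (stroma close to follicles), PDGFB from -0.16 to 0.05 in the last comparison, and between the stromal compartments PDGFA from -0.13 to 0.1, PDGFRB from -0.0083 to 0.092 and KIT from -0.27 to 0.17. The arrays carry no detection calls, so values near 4.1 limit PDGFA, PDGFB and PDGFRL.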
